A study of Mus musculus with 16 samples.

Results

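Macrophages with Fcrl5 transcripts were studied in Panc02-SIY tumors, where 923 cell barcodes met the gate, out of 14754 barcodes kept from these tumors and 16350 kept in the whole single-cell series. A barcode was kept when it held at least 500 detected genes and at most 10% mitochondrial counts, and a barcode string found in several libraries of one tumor line was kept only in the library where it had the most unique molecular identifiers (UMIs, each standing for 1 captured transcript). The gate then asked for at least 1 UMI of Fcrl5, at least 1 UMI of Fcgr4 or Cd300e, no UMI of the B cell genes Cd79a and Ms4a1, and no UMI of the T cell genes Cd3d and Cd3e. The cells were thus chosen by their measured UMI counts of these genes, so the values of the 7 genes are given below as a description and carry no test.

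Panc02-SIY tumors were grown in C57BL/6J mice, 6 to 8 weeks old per the methods, from a murine pancreatic cancer line engineered to carry the SIY peptide as a model antigen. Untreated tumors (NT) were compared with tumors taken 24 h after a single CT-guided dose of 12 Gy (RT), and live CD45+ cells, the leukocytes of the tumor, were sorted and profiled with the 10X 3' single-cell kit. The same was done for MC38, a colorectal carcinoma line, and all 16 libraries share the strain and the sort. The labels give 4 replicates in each group whereas the methods give 3 animals in each group, and which animal each library came from is not stated, so p-values measure the spread between libraries.

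Fcrl5 is a member of the Fc receptor-like family, best known from B cells and plasma cells, where it binds immunoglobulin G and carries both activating and inhibitory signaling motifs in its tail. Fcgr4 is an activating mouse Fc receptor for IgG subclasses that signals through the shared gamma chain Fcer1g, and Cd300e is an activating receptor of the CD300 family found on monocytes and macrophages. Tumor macrophages arise mainly from blood monocytes, take up dying cells, present antigen on MHC class II and clear immune complexes through such receptors. Ionizing radiation activates p53, whose targets stop the cell cycle (Cdkn1a), limit p53 itself (Mdm2) or promote cell death (Bax).

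The gated cells were spread very unevenly over the libraries. The untreated libraries 1 to 4 held 6, 65, 39 and 415 of them, and the irradiated libraries 1 to 4 held 11, 41, 38 and 308. Replicate 4 had the most gated cells in both groups, and replicate 1 the fewest in both. Median depth per gated cell was 2618, 11570, 11333 and 14039 UMIs in the untreated libraries and 3430, 13521, 15004 and 15327 UMIs in the irradiated ones. The replicate 1 libraries were thus low in both the number and the depth of these cells, with 34278 (NT) and 95847 (RT) UMIs in all against 516298 to 6558998 in the others. In Panc02-SIY, 63 barcode strings occurred in more than 1 library, 191 barcodes were dropped for this reason, and 3 of the 923 gated cells have a string that another library also holds.

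**Figure D1:**
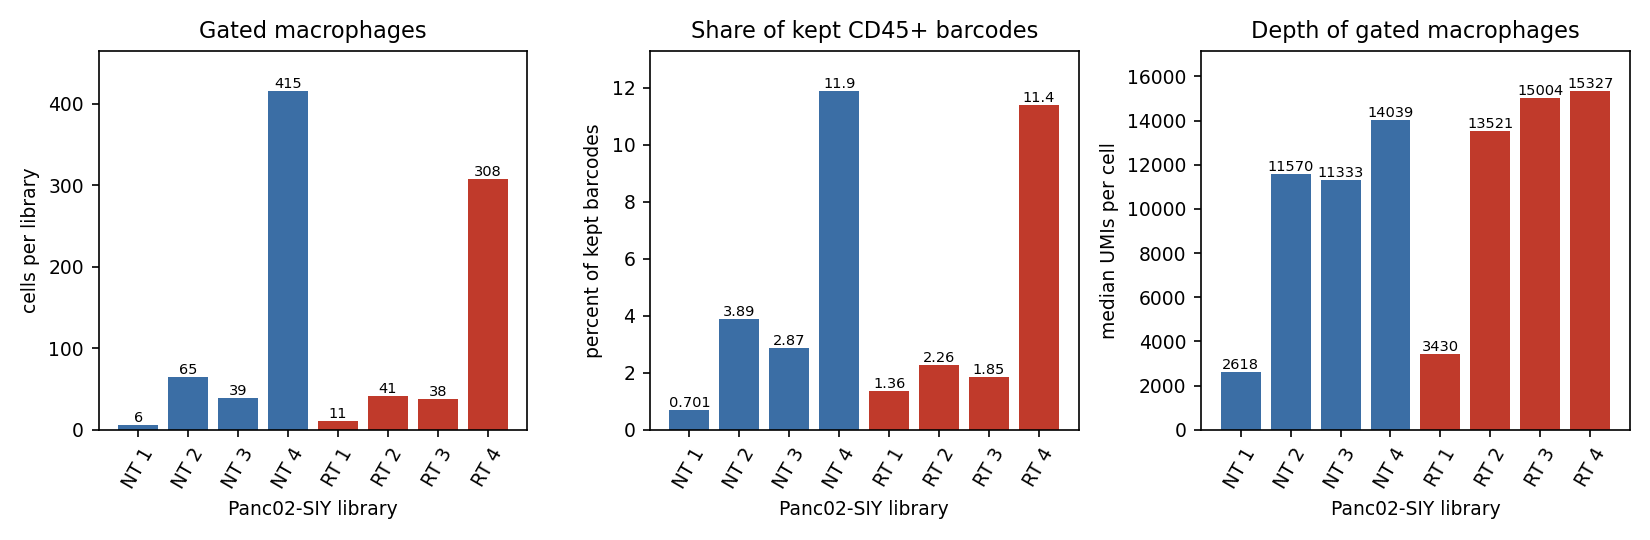
Bars show, for each of the 8 Panc02-SIY libraries (blue NT, red RT), the number of gated macrophages, their share of kept CD45+ barcodes in percent and their median UMIs per cell. Replicate 4 stands highest for number and share in both groups, and replicate 1 lowest for depth.

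No MC38 barcode met the gate. Among kept MC38 barcodes 0 of 1596 had a UMI of Fcrl5, which allows a share of up to 0.188% (3 counts of the total), and among the 1067 of them with C1q transcripts (median 25473 UMIs) the limit was 0.281%. These limits are for barcodes with a UMI, not for cells that express the gene, and cover counting error only. Over all 9843 deposited MC38 barcodes, the kept ones and those dropped for quality or for shared strings, 1 UMI of Fcrl5 was counted. Only 1596 of the 7360 MC38 barcodes that passed the quality filter were kept because the same strings recurred among the MC38 libraries. The gated cells were therefore compared only within Panc02-SIY.

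Within Panc02-SIY, Fcrl5 UMIs were counted mostly in barcodes with C1q transcripts. The shares here are pooled over the 8 libraries and are a description of a gate gene, with no test. Of 2342 barcodes with C1q transcripts and no lymphocyte UMI, 928 (39.6%) had Fcrl5, at a median of 6591 UMIs. The share was 0.393% (19 of 4840) in T cells without C1q at a median of 6822 UMIs, and 0.978% (15 of 1533) in barcodes with neutrophil genes at 2684 UMIs. Gated cells, which all have Fcrl5, were left out of the neutrophil set, so its share is low in part by construction, also after thinning. Among the 923 gated cells, 34 had a UMI of the neutrophil gene Cxcr2 and 0 had Ly6g. B cells, a known site of Fcrl5 expression, had it in 20 of 182 (11%) at 3608 UMIs. After each barcode was thinned to 2000 UMIs, with shallower ones left out, the shares were 22.5% of 1691, 0.126% of 4752, 0.407% of 1230 and 3.39% of 177 in the same order.

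Cells just inside the gate were shallower, with less Fcgr4 and Cd72, than cells well inside it. Exactly 1 Fcrl5 UMI was counted in 255 gated cells (median 5539 UMIs), 2 in 129 (11394 UMIs) and 3 or more in 539 (16976 UMIs, up to 22 of Fcrl5). Pooled Fcgr4 was at 1064 CPM (UMIs of the gene per 1000000 UMIs of the same set of cells) with 1 Fcrl5 UMI, 1461 CPM with 2 and 1920 CPM with 3 or more, and Cd72, a gene the gate did not use, was at 569, 799 and 1192 CPM. Plac8, a monocyte gene, went the other way, from 311 to 167 to 46.0 CPM. Both Fcgr4 and Cd300e were detected in 795 gated cells, Fcgr4 alone in 117 and Cd300e alone in 11. Of all 1369 Panc02-SIY barcodes with Fcrl5, 30 were left out because they lacked both Fcgr4 and Cd300e (median 2270 UMIs), and 351 that had Fcgr4 or Cd300e were left out by a lymphocyte UMI, 344 of them by Cd3d or Cd3e. Those 351 had a median of 20682 UMIs and Fcgr4 at 1117 CPM, with Cd3d at 293 CPM and the T cell receptor gene Trac at 172 CPM, against Trac at 3.74 CPM in the gated cells. Whether they are doublets with T cells was not tested.

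The 5 marker genes were all present in the gated cells, and the gate genes are listed first. Fcrl5 (ENSMUSG00000048031, GRCm38 chr3:87435773-87500678, plus strand) stood at 321, 192, 306 and 252 CPM in untreated libraries 1 to 4 and at 407, 323, 276 and 333 CPM in irradiated libraries 1 to 4. Fcgr4 (chr1:171018920-171029761, plus strand) stood at 992, 1351, 1426 and 1347 CPM in NT and 2379, 1975, 2208 and 2155 CPM in RT. All irradiated libraries were above all untreated ones for Fcgr4, which the gate used, so no test is given. Cd300e (chr11:115051917-115062177, minus strand) had a mean of 372 ± 98.7 CPM (SD, n = 8 libraries) in the gated cells. Acp5, the tartrate-resistant acid phosphatase, was detected in 91.5% of gated cells at 809 ± 136 CPM, and Lpl, lipoprotein lipase, in 75.1% at 463 ± 264 CPM. Relative to its mean Lpl varied most of the 5, from 146 and 156 CPM in the replicate 1 libraries to 806 and 868 CPM in the replicate 3 libraries.

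The macrophage label held for most of its core markers. C1qa, C1qb and C1qc, the subunits of complement C1q, were detected in 98.5%, 98.4% and 98.2% of gated cells, Cd68 in 88.0%, Csf1r, the receptor for the macrophage growth factor CSF1, in 84.4%, and Adgre1, which encodes F4/80, in 81.9%. All 15 macrophage core genes were present, and 14 had a mean of 50 CPM or more, while Trem2 was at 12.1 ± 11.2 CPM. Lyz2, the lysozyme of most myeloid cells, was at 355 ± 119 CPM, against 1384 CPM in C1q macrophages of the same libraries. The classical monocyte genes Ly6c2 (20 CPM), Ccr2 (19.7 CPM), Vcan (0.751 CPM) and Hp (0.477 CPM) were low, and Plac8 made up most of that list's level at 96.0 CPM, with a UMI in 23.0% of gated cells. Of 12 non-classical monocyte genes 7 were at 50 CPM or more: Cebpb (267 CPM), Cx3cr1 (238 CPM), Itgal (145 CPM), Klf2 (115 CPM), Nr4a1 (87.8 CPM), Spn (78.9 CPM) and Treml4 (71.3 CPM). Ace (1.23 CPM) and Eno3 (6.38 CPM) of that list were near 0. Adgre4 (15.0 CPM) and Ear2 (17.0 CPM) were low, and Pglyrp1 had a UMI in 5.42% of gated cells. The list as a whole was lower in gated cells than in the 2 sets described below. It summed to 1051 CPM, against 1785.5 CPM in C1q macrophages and 3752 CPM in Ly6c2 monocytes.

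Lists for other macrophage states were present in part. Of the 12 osteoclast genes, Ctsk and Calcr had no UMI in the gated cells, and Dcstamp (0.0242 CPM), Atp6v0d2 (0.0191 CPM) and Oscar (0.0191 CPM) were close to 0. Others of that list were present, with the proton pump subunit Tcirg1 at 145 CPM, the RANK receptor gene Tnfrsf11a at 54.6 CPM, Nfatc1 at 45.2 CPM, Mitf at 19.8 CPM and Ocstamp at 14.6 CPM. Gpnmb (0.393 CPM), Fabp4 (0.334 CPM) and Cd36 (0.586 CPM) of the lipid-associated macrophage list were near 0, while the cathepsin Ctsb (1829 CPM), the cholesterol exporter Abcg1 (388 CPM) and the lysosomal lipase Lipa (278 CPM) were present. Of the tissue macrophage genes, Mrc1, the mannose receptor, was at 130.1 ± 82.7 CPM with a UMI in 40.3% of gated cells, while Nos2 (0.0483 CPM), Cd163 (0.119 CPM), Folr2 (0.0674 CPM) and Retnla (1.87 CPM) were near 0.

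For comparison, 2 other sets were taken from the same libraries. C1q macrophages had at least 3 C1q UMIs and no Fcrl5 UMI (1414 barcodes, median 2704 UMIs), and Ly6c2 monocytes had at least 2 Ly6c2 UMIs, Lyz2 and no C1q (249 barcodes, median 10035 UMIs). The C1q set is shallower than the gated cells (median 14161 UMIs), and a cell with few UMIs can miss Fcrl5, so values are also given for the 526 C1q macrophages with 5000 or more UMIs (median 13688). Genes that picked a set were left out, and the comparison is a description because the gate was drawn with clusters of these cells known.

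Over the 3528 genes with at least 50 CPM in the higher set, 372 (10.5%) were higher in gated cells than in C1q macrophages in all 8 libraries and 428 (12.1%) were lower in all 8. Among genes higher in all 8, the largest ratios were those of Klra17, a Ly49 family lectin receptor (358 ± 106 against 57.9 ± 31.6 CPM, mean log2 ratio 2.53 ± 0.90), the adhesion molecule Negr1 (2.41 ± 0.79) and the lectin receptor Clec4b1 (2.38 ± 0.80). Among the 20 highest of this kind were also the transcription factor Pou2f2 (1140.5 against 228 CPM), the inhibitory receptor Cd72 (988 against 224 CPM), Ighm, the heavy chain of IgM (423 against 101 CPM), and Cd79b, a chain of the B cell receptor (72.5 against 14.3 CPM), all known from B cells. The others were the ubiquitin ligase subunit Asb2, the glycerol kinase Gk, the formyl peptide receptor Fpr2, Nxpe4, Sirpb1a, the adaptors Grap2, Sh3bp5 and Sh2d1b1, the lipid-sensing nuclear receptor Pparg, the receptors Siglece, Slamf9 and Xcr1, and the G protein regulator Rgs1, with mean log2 ratios from 1.61 to 2.04. Ighg2b, an IgG heavy chain (93.8 against 8.50 CPM, 2.25 ± 1.09), and the chemokine Cxcl14 (142 against 27.9 CPM, 1.81 ± 1.48) had ratios in the same range but were higher in 7 of 8 libraries. They were chosen after their values were seen.

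Against the deeper C1q macrophages the same 20 genes were higher in 8 of 8 libraries, with Klra17 at a mean log2 ratio of 3.17 and Rgs1 at 1.56. These deeper cells are part of the set that the 20 were picked against, so the agreement was likely in advance and is no independent check. Against Ly6c2 monocytes, 19 of the 20 were higher in 8 of 8 libraries. The monocytes were few, with 6, 6, 17 and 12 in NT 1 to 4 and 29, 31, 65 and 83 in RT 1 to 4. Nxpe4 was the exception, at 61.8 CPM in gated cells and 57.4 CPM in monocytes. Of the lowest 10 genes against C1q macrophages, the matrix protein Fn1 was at 52.3 against 794 CPM, the chemokine Ccl24 at 6.01 against 383 CPM, Plac8 at 96.0 against 1065 CPM and Spp1, osteopontin, at 41.5 against 331 CPM. Also in that group were the neutrophil calgranulins S100a8 and S100a9 (68.6 and 57.5 CPM against 787 and 696 CPM), Emp1, the matrix gene Mgp, the early response gene Egr1 and the transcription factor Nfib. The C1q set carries neutrophil transcripts of its own. In those with 5000 or more UMIs S100a8 was at 316 CPM, and the part of neutrophil transcripts in these ratios was not tested.

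**Figure D2:**
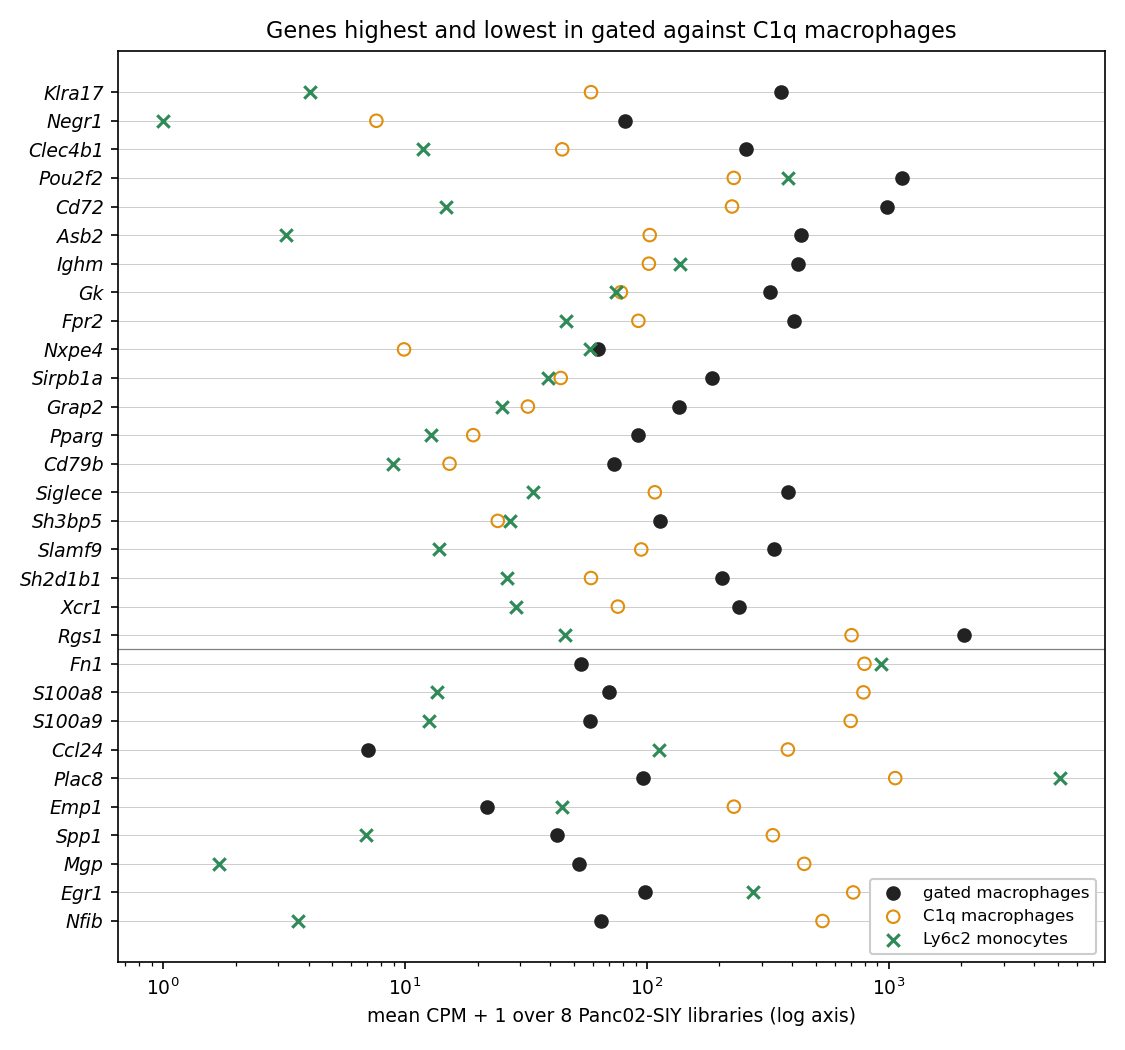
Each row is a gene, and the x axis gives its mean CPM plus 1 over 8 Panc02-SIY libraries on a log axis. Filled points are gated macrophages, open points C1q macrophages and crosses Ly6c2 monocytes. The upper 20 genes have the highest and the lower 10 the lowest ratio of gated to C1q macrophages among genes with the same direction in all 8 libraries, with Klra17 at 358 against 57.9 CPM at the top and Fn1 at 52.3 against 794 CPM among the lowest.

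Some genes known from other leukocytes were detected in many gated cells, among them Ighm (87.5% of them), Xcr1 (78.5%), Csf3r (60.1%) and Cd79b (51.0%), while others were near 0. Of 7 B cell and plasma cell genes, Ighm made up most of a summed level of 540.3 ± 79.1 CPM, followed by Cd79b (72.5 CPM) and Bank1 (34.8 CPM), while Mzb1 was at 0.155 CPM and the light chain Igkc at 8.73 CPM. Of 8 dendritic cell genes, Xcr1 was the most abundant at 241 ± 80.3 CPM and Clec9a was at 29.6 CPM, while Flt3 was at 0.369 CPM, Zbtb46 at 4.12 CPM, Ccr7 at 2.47 CPM and Siglech at 0. The summed dendritic cell level was 87.5, 279, 283 and 255 CPM in NT and 897, 295, 341 and 318 CPM in RT. Irradiated library 1 stood apart through Cd209a, at 522 CPM there and at most 4.06 CPM in the other 7 libraries. T cell genes summed to 50.1 ± 24.7 CPM with Thy1 highest at 12.2 CPM, neutrophil genes to 222 ± 126 CPM with Csf3r highest at 88.3 CPM and Ly6g at 0, and tumor and stroma genes to 171 ± 42.7 CPM, of which Pecam1 was 144 CPM and Epcam 0.154 CPM. The 4 erythroid and platelet genes had no UMI.

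Antigen presentation, Fc signaling and lysosomal genes were among the most abundant. Outside ribosomal and mitochondrial genes, the 10 highest were Malat1 (24981 CPM), Tmsb4x, Actb, the MHC class II invariant chain Cd74 (15076 ± 3232 CPM), Gm42418, the ferritin chain Fth1, Fcer1g (5955 ± 388 CPM), H2-Aa (5859 CPM), the lysosomal prosaposin Psap and H2-Ab1. Gm42418 overlaps ribosomal RNA genes, so its counts may hold ribosomal reads. Fcer1g, the chain through which Fcgr4 signals, was at 2895 CPM in C1q macrophages and higher in the gated cells in 8 of 8 libraries (mean log2 ratio 1.05 ± 0.22). The 11 Fc receptor and signaling genes summed to 8700 ± 363 CPM. Among them the inhibitory receptor Fcgr2b was lower in gated cells (135 CPM) than in C1q macrophages (317 CPM), and the related Fc receptor-like genes Fcrls (0.697 CPM) and Fcrl1 (1.20 CPM) were near 0. In the CD300 family Cd300c2 reached 484 CPM and Cd300lf 327 CPM, and Cd300lb was at 1.48 CPM.

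Whether radiation altered the share of these cells within 24 h was asked over the 8 libraries, and no difference was detected. Gated cells made up 0.701%, 3.89%, 2.87% and 11.9% of kept barcodes in untreated libraries 1 to 4 and 1.36%, 2.26%, 1.85% and 11.4% in irradiated libraries 1 to 4. The groups overlapped fully. Means were 4.83% ± 4.88 (SD, n = 4) in NT and 4.22% ± 4.80 (SD, n = 4) in RT, a difference of -0.613 percentage points (exact permutation test, two-sided, p = 0.714, with adjusted p = 0.8 over both shares). As a share of gated cells plus C1q macrophages, the means were 27.4% ± 13.5 in NT and 30.2% ± 16.4 in RT, a difference of 2.79 points (exact permutation test, n = 4 each, p = 0.8, adjusted p = 0.8). The smallest p that 4 against 4 libraries can give is 0.0286. The sign of both differences depended on single libraries. Without untreated library 4 the first difference was 1.73 points, and without irradiated library 4 the second was -4.93 points.

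Gene expression after radiation was compared on UMIs summed per library over the gated cells with edgeR's quasi-likelihood test, using libraries with at least 10 gated cells (NT 2 to 4 against RT 1 to 4). Untreated library 1, with 6 cells, was left out of this fit. With thresholds of 0.1 on the adjusted p (Benjamini-Hochberg) and 1.3 on the fold change, 56 of 6637 genes changed (0.844%), 18 of them higher (0.271%) and 38 lower (0.573%) in RT. The libraries of the groups in the fit did not overlap in CPM for 51 of the 56, and for 863 of all 6637 genes (13%). All 56 kept their direction under each alternative in which they were tested, which was likely in advance, as they were picked from largely the same counts. The number called was not stable: it was 16, 10, 26, 104, 13 and 11 without NT 2, NT 3, NT 4, RT 1, RT 2 and RT 3 in turn, and 50 without RT 4. The 26 without NT 4 were 13 higher and 13 lower. With a replicate block, in which RT 1 had no untreated library of its number, 657 were called (315 higher and 342 lower). The number called was 115 with 2 or more Fcrl5 UMIs (60 and 55). With NT 1 added it was 10, all among the 56, of which 9 were higher (Cdkn1a, Ccng1, Gm42047, Exoc4, Fgl2, Mdm2, Bax, Trp53inp1 and Nfkbiz) and 1 lower (Hist1h2ap). Below, overlap is stated for the libraries in the fit, and values of NT 1 are given apart. Classical monocyte genes also had a higher summed level in the irradiated libraries in these cells, a sum that was not tested. The 8 of them summed to 0, 95.5, 58.1 and 133 CPM in NT 1 to 4 and 323, 223, 189 and 178 CPM in RT 1 to 4, so that every irradiated library was above every untreated one. Plac8 was the most abundant, and no UMI of the list was counted in NT 1. Of the 3 that could be tested none was called by edgeR or DESeq2 (Ccr2 1.61, Ly6c2 1.01 and Plac8 0.81 on the log2 scale, 1 of them higher at an unadjusted p below 0.05). Their part in the radiation results that follow was not tested.

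Of the 56 genes, 8 were called in each of the 7 fits without 1 library: Cdkn1a, Ccng1, Exoc4, Gm42047, Hist1h2ap, Hist1h2ae, Ranbp1 and Ptma.

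Targets of p53 led the genes that rose. Of 30 listed targets 17 could be tested, and 5 of them rose (Cdkn1a, Trp53inp1, Ccng1, Mdm2 and Bax), where 0.271% of all genes did. None of the 17 fell by edgeR or DESeq2 (0 lower at an unadjusted p below 0.05, against 12 higher), and their median log2 fold change was 0.80 against 0.01 over all genes. Without RT 1, 8 of 19 were called, without RT 2 2 of 17, and without NT 2, NT 3, RT 3 or RT 4 3 each. With NT 1 added 5 of 14 were called. Mdm2 kept its call in 2 and Bax in 4 of the 7 fits without 1 library.

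Cdkn1a (ENSMUSG00000023067), which encodes the cyclin-dependent kinase inhibitor p21, was at 31.5, 29.1 and 58.5 CPM in NT 2 to 4 and at 428, 555, 503 and 765 CPM in RT 1 to 4. Every irradiated library was far above every untreated one, and NT 1 had no Cdkn1a UMI. The log2 fold change was 3.71 ± 0.27 (SE, edgeR adjusted p = 1.33e-05), and it lay between 3.51 and 4.25 when each library was left out in turn.

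Ccng1, cyclin G1, rose from 58.6, 52.3 and 52.3 CPM to 115, 190.0, 129 and 179 CPM (log2 fold change 1.58 ± 0.20, edgeR adjusted p = 0.00107). The groups were well apart. Trp53inp1, a p53-induced nuclear protein, rose from 5.42, 5.81 and 9.76 CPM to 0, 44.2, 51.1 and 45.1 CPM (2.37 ± 0.36, edgeR adjusted p = 0.00467). RT 1 held none of it, and a single UMI there is worth 10.4 CPM, so the libraries overlapped. NT 1, not in the fit, held 117 CPM from 6 shallow cells, and Trp53inp1 passed the filter in 4 of the 7 fits without 1 library and was called in those 4.

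Bax, the pro-apoptotic pore protein, was at 159, 169 and 189 CPM in NT and 303, 305, 271 and 306 CPM in RT (0.77 ± 0.15, edgeR adjusted p = 0.0333), with no overlap. Mdm2, the ubiquitin ligase that degrades p53, was at 53.2, 42.6 and 67.2 CPM in NT and 62.6, 142, 94.6 and 127 CPM in RT (1.03 ± 0.23, edgeR adjusted p = 0.0721), and RT 1 lay within the untreated range. Other targets did not pass, among them Zmat3 (1.26 ± 0.32, edgeR adjusted p = 0.105), Sesn2 (1.07 ± 0.31, adjusted p = 0.149) and Bbc3, which encodes PUMA (1.25 ± 0.39, adjusted p = 0.176).

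**Figure D3:**
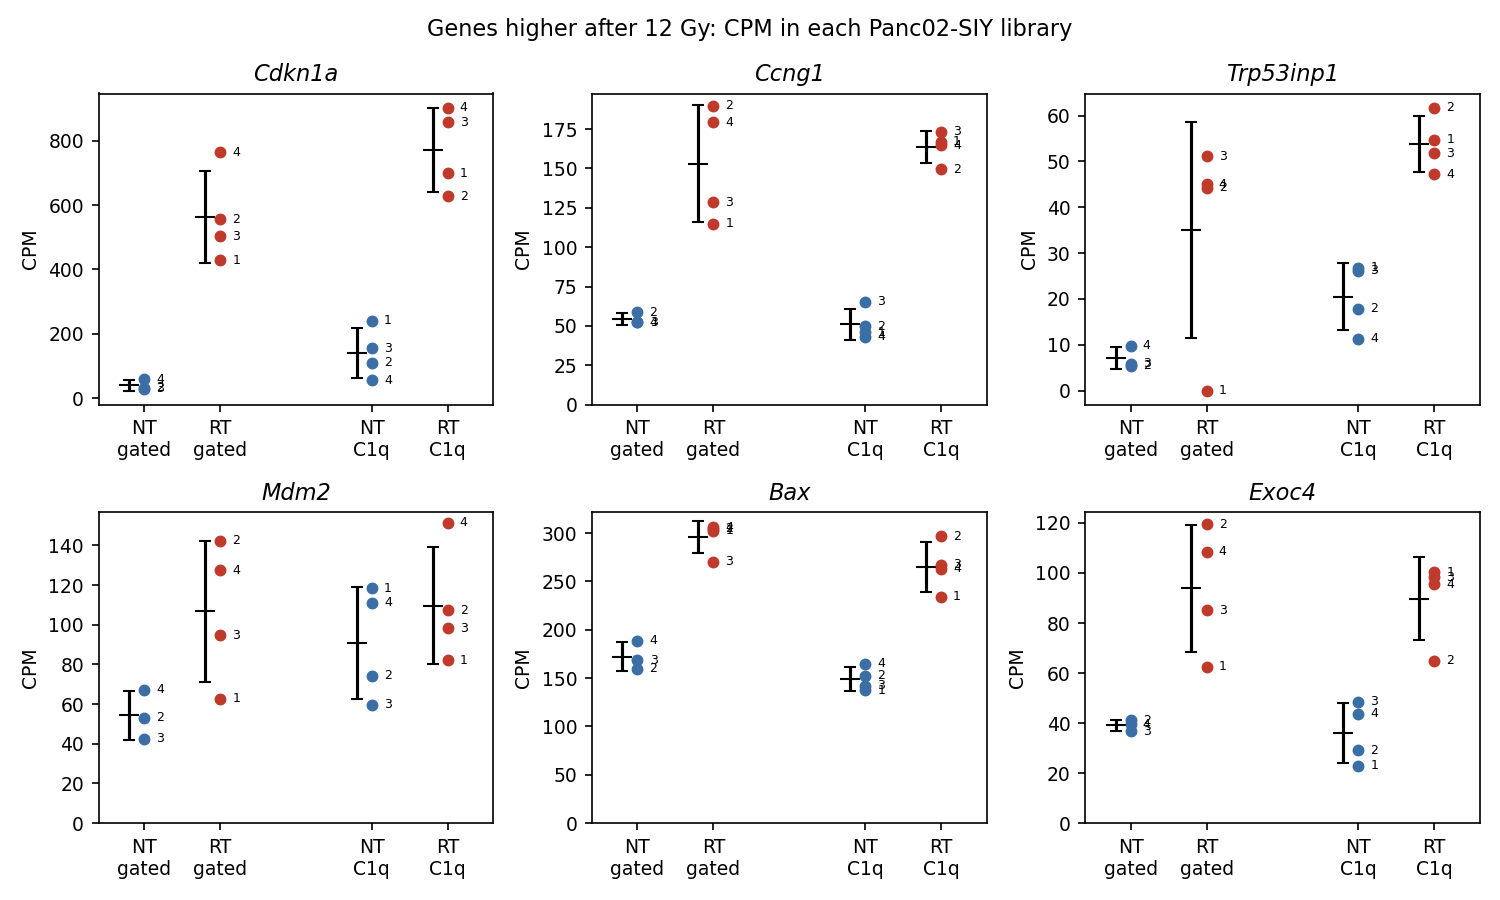
CPM of 6 genes in each library, numbered by replicate, for gated macrophages (left pair) and C1q macrophages (right pair), blue for NT and red for RT. The black dash and bar give mean and SD. Untreated library 1 is not plotted for the gated cells. For Cdkn1a the irradiated gated cells lie between 428 and 765 CPM, all above the untreated ones.

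The promoters of these genes are shown because p53 binds DNA at a known motif. Windows from 250 bases before to 50 after each transcription start (RefSeq, build GRCm38.p6) were searched for the p53 half-site consensus, which reads the same on both strands. A half-site was found in 8.36% of all 32851 windows and 2 or more in 0.359%. It was found in 5 of the 16 windows (31.2%) of the genes that rose, of which 14 of 18 had a window, and in 4 of the 40 windows (10%) of those that fell, of which 30 of 38 had one. Among windows of p53 list genes, 4 of 5 (80%) held one where the gene was called and 6 of 26 (23.1%) where it was not. Cdkn1a held 2, starting 73 and 51 bases before its start. The stretches below run 5′ to 3′ on the gene's strand, with half-sites in capitals.
Cdkn1a (chr17:29090881-29090962, plus strand): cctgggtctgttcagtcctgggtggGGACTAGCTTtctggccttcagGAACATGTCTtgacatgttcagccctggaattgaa
Ccng1 (chr11:40755437-40755496, minus strand): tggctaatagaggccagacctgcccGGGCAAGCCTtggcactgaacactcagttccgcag
Mdm2 (chr10:117710910-117710969, minus strand): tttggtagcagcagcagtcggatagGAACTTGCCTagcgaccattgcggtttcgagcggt
Bax (chr7:45467065-45467124, minus strand): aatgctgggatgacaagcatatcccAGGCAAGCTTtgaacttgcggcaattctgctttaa
Exoc4 (chr6:33248900-33248959, plus strand): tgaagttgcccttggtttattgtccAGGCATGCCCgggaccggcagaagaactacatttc
Exoc4, a subunit of the exocyst complex of secretion that is not on the p53 list, rose from 41.2, 36.8 and 39.5 CPM to 62.6, 119.5, 85.1 and 108 CPM (log2 fold change 1.37 ± 0.21, edgeR adjusted p = 0.00467), with no overlap. The windows of Fcrl5, Fcgr4 and Cd300e held no half-site, which says only that these letters are not in these windows. A match is a description of the sequence and not evidence of binding.

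Cdkn1a was detected in a larger share of gated cells in the irradiated libraries. After each cell was thinned to 5000 UMIs, Cdkn1a was detected in 13%, 10.3% and 18.9% of gated cells in NT 2 to 4 and in 60%, 61.3%, 65.6% and 85.8% in RT 1 to 4, with no overlap between the groups. Shallower cells were left out, 19, 10 and 82 of NT 2 to 4 and 6, 10, 6 and 26 of RT 1 to 4, and only 5 cells of RT 1 were deep enough. Without thinning the shares were 18.5%, 15.4% and 27.7% in NT 2 to 4 and 36.4%, 56.1%, 68.4% and 89.3% in RT 1 to 4. Among gated cells with Mki67 or Top2a, Cdkn1a was at 40.4, 31.7 and 64.0 CPM in NT 2 to 4 and at 568, 570, 542 and 761 CPM in RT 1 to 4, above every untreated library. Among those without either gene it was at 17.0, 18.9 and 43.6 CPM in NT 2 to 4 and at 333, 524, 392 and 772 CPM in RT 1 to 4, again above every untreated library. The RT 1 values rest on 3 and 8 cells. The part of free RNA in these shares and levels was not tested.

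Among the 38 genes that fell, 1 is on a listed pathway (Tyms), and the roles given here are background on single genes. The untreated library with 6 cells was at or below all irradiated libraries for most of them, and with it in the fit only Hist1h2ap was called. The steepest falls were of Hist1h2ae (-3.04 ± 0.37, edgeR adjusted p = 0.00197) and Hist1h2ap (-2.88 ± 0.26, adjusted p = 1.33e-05), which encode histone H2A. Hist1h2ap went from 144, 110.4 and 106 CPM in NT to 0, 16.4, 11.4 and 18.2 CPM in RT, with no overlap. NT 1 held no UMI of either gene. These histone genes belong to a family of near-identical copies whose transcripts lack long poly(A) tails, so the counts of single copies are uncertain.

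Tyms, which makes thymidylate for DNA synthesis, fell from 32.5, 42.6 and 34.9 CPM to 0, 11.5, 7.57 and 14.3 CPM (-1.55 ± 0.30, edgeR adjusted p = 0.0356), and these libraries did not overlap. NT 1 held no Tyms UMI. Its call held in 2 of the 7 fits without 1 library. Others of the 12 largest falls were Gins2 of the replication helicase (-1.51), the dUTPase Dut (-1.36), Nrm (-1.23), the fork protection factor Tipin (-1.21), the clamp loader subunit Rfc4 (-1.16), thymidine kinase Tk1 (-1.11) and Syce2 (-1.11). Gins2, Tipin and Rfc4 were among the 20 of the 56 genes that kept their call in only 1 of the 7 fits. Ranbp1 (-1.24 ± 0.19, edgeR adjusted p = 0.00519) and the nuclear transport GTPase Ran (-1.0 ± 0.18, adjusted p = 0.0189) fell together, Ranbp1 from 255, 281 and 261 CPM to 115, 129, 68.1 and 126 CPM. All RT libraries lay below NT 2 to 4 for both genes. NT 1 went the other way, with Ran at 117 CPM and Ranbp1 at 29.2 CPM, below every irradiated library.

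Smaller falls affected abundant transcripts. Ptma, the nuclear protein prothymosin alpha, was at 2249, 2287 and 2346 CPM in NT and 1408, 1341, 1324 and 1418 CPM in RT (-0.74 ± 0.12, edgeR adjusted p = 0.0071). The spread within NT 2 to 4 and within RT was small beside the gap between them, but NT 1 was at 934 CPM, below every irradiated library. The histone variant H2afz fell by 0.92 ± 0.17 (edgeR adjusted p = 0.0287) and the prolyl isomerase Ppia by 0.68 ± 0.13 (adjusted p = 0.0317) on the log2 scale. In NT 1, H2afz was at 671 CPM and Ppia at 1634 CPM.

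**Figure D4:**
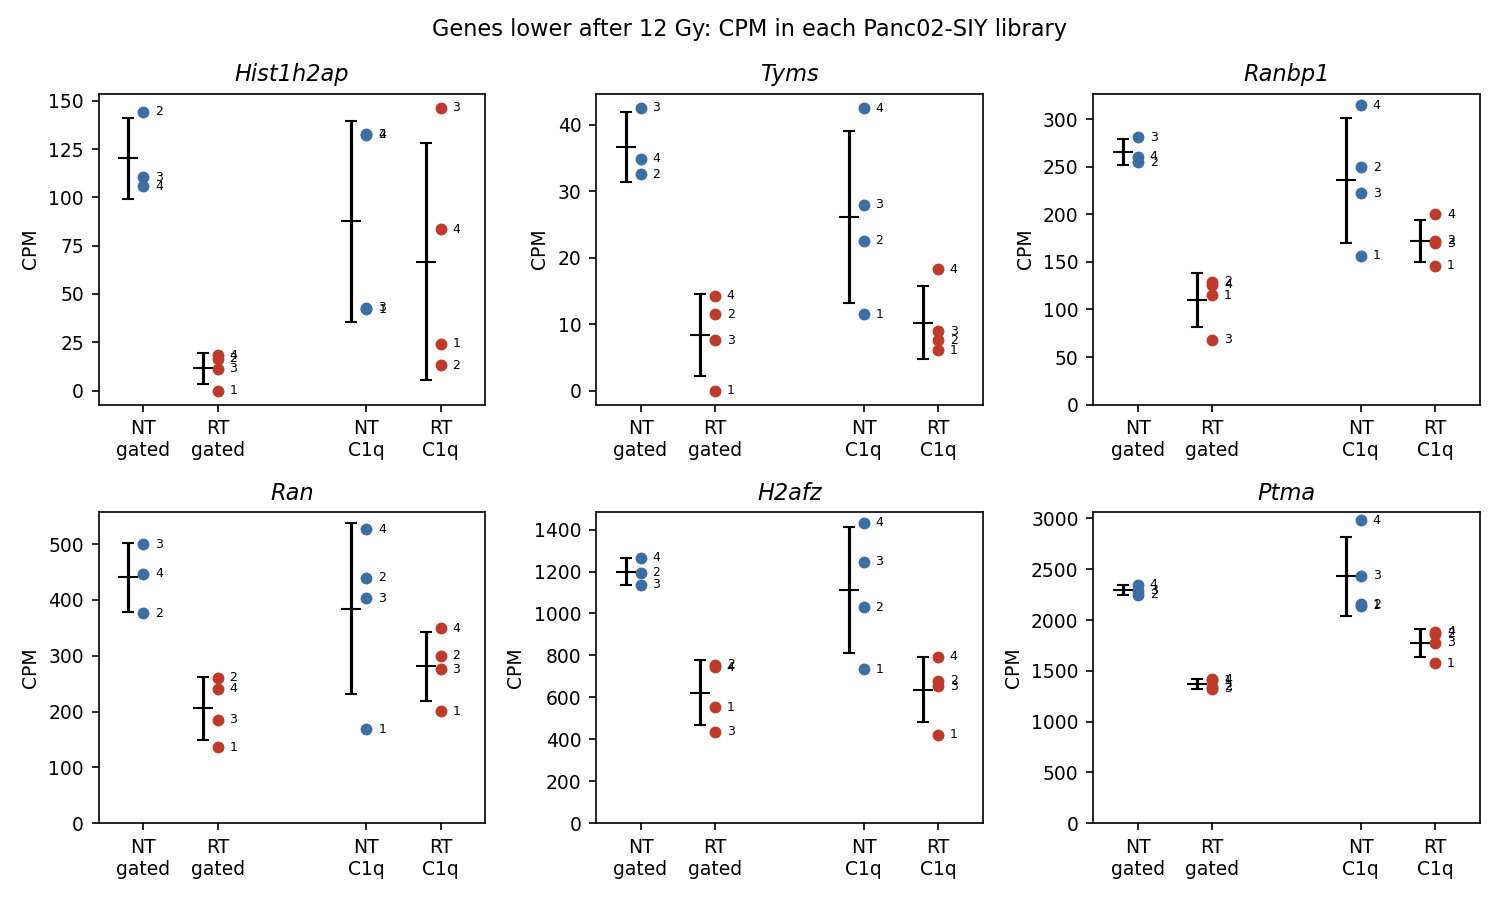
CPM of 6 genes that fell, drawn as in the plot of genes that rose. In gated macrophages (left pair) every irradiated library lies below NT 2 to 4 for each gene (NT 1, with 6 cells, is not plotted), as for Ptma with 1324 to 1418 CPM against 2249 to 2346 CPM.

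Of the cell cycle list 1 gene passed, and the level of the list differed by library. All 21 listed genes were tested and 1, Tyms, fell, against 0.573% of all genes. All 21 had a fold change below 0, with a median log2 of -0.72 against 0.01 over all genes, and 11 had an unadjusted p below 0.05. The summed level of the list was 379, 2864, 2880.1 and 3223 CPM in untreated libraries 1 to 4 and 396, 2089, 1169 and 2254 CPM in irradiated libraries 1 to 4. The shallow replicate 1 libraries were low in both groups, and among replicates 2 to 4 the irradiated libraries were below the untreated ones. Mki67 and Top2a, markers of dividing cells, had log2 fold changes of -0.51 ± 0.46 and -0.47 ± 0.37 and did not pass (edgeR adjusted p = 0.739 and 0.682). After thinning to 5000 UMIs, Mki67 or Top2a was detected in 32.6%, 55.2% and 43.8% of gated cells in NT 2 to 4 and in 40.0%, 35.5%, 28.1% and 35.8% in RT 1 to 4, and the groups overlapped. Without thinning the shares were 44.6%, 69.2% and 60.2% in NT 2 to 4 and 27.3%, 51.2%, 60.5% and 56.8% in RT 1 to 4. Without RT 1 the median of the list was -0.62 and 3 of its 21 genes fell, and without NT 2, NT 3, RT 2 or RT 3, or with NT 1 added, none passed.

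A further 12 genes outside the p53 list rose besides Exoc4. Gm42047, a long noncoding RNA, went from 6.51, 7.75 and 12.3 CPM to 20.9, 68.8, 32.2 and 60.3 CPM (2.34 ± 0.33, edgeR adjusted p = 0.00197), with no overlap. Fgl2, a prothrombinase and immune regulator of macrophages, rose from 254, 169 and 196 CPM to 490.4, 337, 420.0 and 348 CPM (0.90 ± 0.18, edgeR adjusted p = 0.0358), also with no overlap. Further rises were of Siglec1, the sialic acid receptor CD169 (1.24 ± 0.29, edgeR adjusted p = 0.0866), the transcription elongation factor Aff1 (0.93 ± 0.22, adjusted p = 0.0885), the Src family kinase Fgr (0.82 ± 0.19, adjusted p = 0.0885), the receptor Slamf7 (0.78), the NF-kB cofactor Nfkbiz (0.73), Rasgef1b (0.72), the inhibitory receptor Pirb (0.68) and the lysosomal protein Laptm5 (0.55). Siglec1, Aff1, Slamf7, Pirb and Laptm5 kept their call in 1 fit each when libraries were left out in turn, and so did Prf1, described next. Siglec1 overlapped, with RT 1 at 10.4 CPM below NT 2 to 4, and NT 1 at 29.2 CPM lay above RT 1 and RT 2. In NT 1 Slamf7 was at 408 CPM, above every irradiated library (104 to 168 CPM).

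Prf1 and Gzmb, the perforin and granzyme B of cytotoxic lymphocytes, also passed, at low levels. Prf1 was at 9.76, 7.75 and 7.93 CPM in NT and 0, 44.2, 30.3 and 22.8 CPM in RT (1.76 ± 0.40, edgeR adjusted p = 0.0866), and Gzmb at 11.9, 19.4 and 14 CPM in NT and 10.4, 72.1, 30.3 and 31.7 CPM in RT (1.47 ± 0.36, adjusted p = 0.0987). RT 1 lay below NT 2 to 4 for both. NT 1 held no Prf1 UMI and had Gzmb at 29.2 CPM. The NK cell list, whose 5 genes include Prf1, also differed between libraries, with a summed level of 58.3, 170.3, 63.9 and 84.3 CPM in NT 1 to 4 and 20.9, 388, 159 and 185 CPM in RT 1 to 4. Gzma was the most abundant (75.5 CPM), and Ncr1 and Klrb1c were at 4.13 and 4.11 CPM. The part of NK cell transcripts in these rises was not tested. DESeq2 called no gene of the NK list.

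Other lists are given by their counts, and with 0.844% of all genes called by edgeR, and 0.331% called higher and 0.497% lower by DESeq2, 0 calls in a short list is near the background and not a result about it. Of 29 interferon-stimulated genes tested none was called by edgeR or DESeq2, 2 were higher and none lower at an unadjusted p below 0.05, and their median log2 fold change was 0.27. Likewise no call was made among 7 MHC class II genes (median 0.12, none at an unadjusted p below 0.05), 17 lysosome and cathepsin genes (0.12, 3 higher at an unadjusted p below 0.05), 9 Fc receptor and signaling genes (0.26, 1 higher) or 11 lipid-associated macrophage genes (0.17, 1 higher), and DESeq2 called none of these either. Among 15 macrophage core genes edgeR called none (median 0.48, 4 higher at an unadjusted p below 0.05) and DESeq2 called 2. In 5 further lists neither tool called a gene: oxidative stress and iron (9 tested, median -0.30, 3 lower at an unadjusted p below 0.05), glycolysis and hypoxia (12, -0.14, 2 higher and 1 lower), apoptotic cell uptake (6, 0.44, 2 higher), inhibitory ligands and tissue macrophage genes (5, 0.53, 3 higher) and the CD300 family (4, 0.08, none). The same held for non-classical monocyte genes (8, 0.02, none), osteoclast genes (5, 0.15, none), B cell and plasma cell genes (3, -0.08, none), neutrophil genes (3, -0.55, none) and dendritic cell genes (2, 0.13, none). Of 20 chemokine and cytokine genes edgeR called none (median 0.28, 3 higher) and DESeq2 called 1. Il1b, an inflammatory cytokine, had a log2 fold change of 0.73 ± 0.18 (edgeR adjusted p = 0.105), and Cd274, which encodes PD-L1, one of 0.64 ± 0.19 (adjusted p = 0.158). Acp5 and Lpl did not pass (0.43 ± 0.13, edgeR adjusted p = 0.176, and -0.25 ± 0.49, adjusted p = 0.925).

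**Figure D5:**
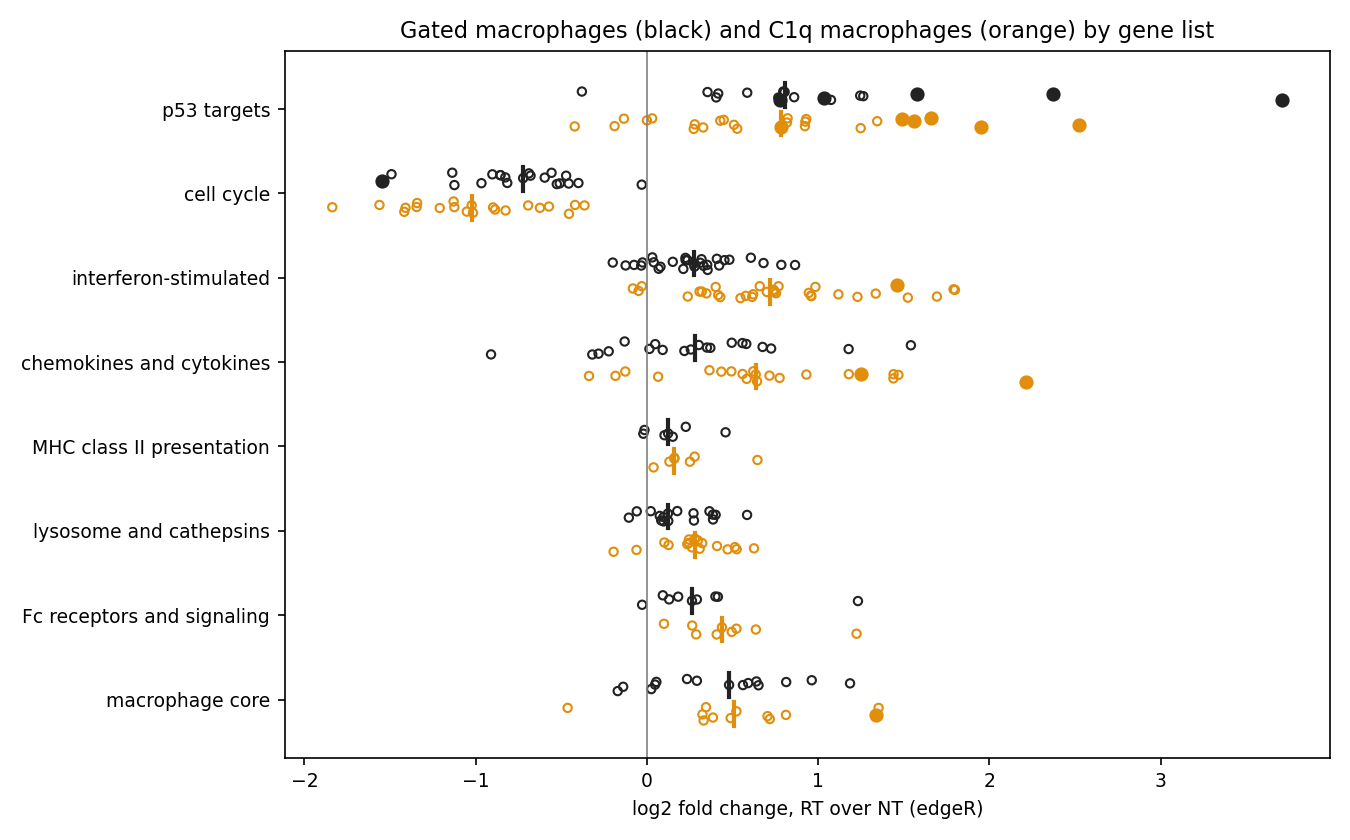
Log2 fold change of RT over NT (x axis, edgeR) for each tested gene of 8 lists, black for gated and orange for C1q macrophages. Filled points passed the threshold and vertical ticks mark medians. In gated cells the p53 list has 5 filled points and a median of 0.80, and the 21 cell cycle genes lie below 0 with a median of -0.72.

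Whether other macrophages of the same tumors responded alike was asked with C1q macrophages (all 8 libraries). There 22 of 8247 genes changed (0.267%), 20 higher (0.243%) and 2 lower (0.0243%). Classical monocyte genes summed to 1933, 693, 1135 and 670 CPM in C1q macrophages of NT 1 to 4. In those of RT 1 to 4 they summed to 2527, 1893, 2387 and 2238 CPM. Of the 7 tested edgeR called none, and all 7 had a fold change above 0 (median log2 1.13). Their part in the response of this set was not tested. Called in both sets were 4 genes, all higher (Cdkn1a, Ccng1, Trp53inp1 and Bax), which is 7.14% of the 56 and 18.2% of the 22. In C1q macrophages 6 of 25 p53 targets rose (median log2 0.78). All 21 cell cycle genes were below 0 (median -1.02), with none called. Of 32 interferon-stimulated genes 1 rose and 20 were higher at an unadjusted p below 0.05 (median 0.72). The difference between the sets was called for 1 of these 32, and for no p53 or cell cycle gene. Cdkn1a in C1q macrophages had a log2 fold change of 2.53 ± 0.38 (edgeR adjusted p = 0.0587) and did not pass without NT 2, RT 1 or RT 4. Its level in untreated C1q macrophages was 241, 109.2, 155 and 55.6 CPM, above that of the untreated gated cells in NT 1 to 3 and close to it in NT 4. Osm, a cytokine of the IL-6 family, rose there (2.21 ± 0.26, edgeR adjusted p = 0.00745) and was at 0.68 ± 0.28 in gated cells (adjusted p = 0.334), but the difference between the sets did not pass (-1.80 ± 0.42, adjusted p = 0.277).

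The difference between the responses was tested with both sets of each library in a single edgeR fit, in which all 8 libraries were kept, so that its gated part includes the 6 cells of NT 1. Being estimated jointly, a difference need not equal the subtraction of the fold changes printed for each set. Over 8180 genes, 4 differed (0.0489%) at an adjusted p below 0.1. Without NT 1, 10 of 8849 genes differed, among them these 4. Hist1h2ae had a lower log2 fold change in gated cells (difference -2.23 ± 0.38, edgeR adjusted p = 0.0047). Fitted alone, it was -3.04 in gated cells and -1.05 in C1q macrophages, where it did not pass (edgeR adjusted p = 0.488). Xcr1, a chemokine receptor, was at 231, 263 and 214 CPM in NT 2 to 4 and 303, 270.2, 305 and 282 CPM in RT 1 to 4 of the gated cells. In C1q macrophages it was at 34.4, 160.0, 116 and 99.0 CPM in NT 1 to 4 and 30.4, 42.2, 42.9 and 75.5 CPM in RT 1 to 4. In the gated cells the irradiated libraries were above NT 2 to 4, with NT 1 at 58.3 CPM, and in C1q macrophages NT 2 to 4 were above every irradiated library. The difference was 1.59 ± 0.27 (edgeR adjusted p = 0.0047). The 8 dendritic cell genes, Xcr1 among them, also varied in C1q macrophages. They summed to 45.8, 247, 484 and 154 CPM in NT 1 to 4 and 39.5, 80.1, 79.5 and 139 CPM in RT 1 to 4. The part of dendritic cell transcripts in this difference was not tested.

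Ifit2, an interferon-stimulated gene, had a log2 fold change of 0.35 in gated cells and 1.79 in C1q macrophages when each set was fitted alone, and in the joint fit the difference was -1.64 ± 0.32 (edgeR adjusted p = 0.0245). Bhlhe41, a transcription factor, had 0.80 against -1.07 when fitted alone and a joint difference of 1.79 ± 0.36 (edgeR adjusted p = 0.028). Within either set alone, Xcr1, Ifit2 and Bhlhe41 did not pass. The difference did not pass for Ifit2 without NT 4 or RT 4, or for Bhlhe41 without NT 4 or RT 3. The median depth of C1q macrophages was 2433, 1927, 2232 and 2262 UMIs in NT 1 to 4 and 1992, 3962, 8444 and 5085 UMIs in RT 1 to 4. In that set RT 2 to 4 were thus deeper than every untreated library, and RT 1 was not. Beyond the deeper cells given next, the part of depth was not tested. With C1q macrophages of 5000 or more UMIs, 3 of the 4 were called, all but Xcr1. With C1q macrophages that also lacked Fcgr4 and Cd300e, 1 gene was called and none of the 4. For Cdkn1a the joint difference was 0.77 and did not pass (edgeR adjusted p = 1).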

How the data were processed

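The authors aligned and counted reads with Cell Ranger (version 3.1.0 in the submitters' processing notes, after bcl2fastq 2.20.0, build mm10) and deposited a filtered matrix of raw UMI counts per library with 31053 features. An aggregated matrix of all samples was not used, and no annotation of cells was used. Members, gene lists and tests were chosen with earlier results of these data known.

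Barcodes were filtered and gated as described, and doublets were not removed (removing the highest 5% of Scrublet scores, 942 barcodes with 27 gated cells, was an alternative). UMI counts were summed per library, filtered with filterByExpr, scaled by TMM and tested with edgeR 4.0.16 (glmQLFit and glmQLFTest, R 4.3.3), fold changes being RT over NT and adjusted p-values Benjamini-Hochberg. The response difference was fitted on sums of both cell sets with a library term. DESeq2 1.42.0 was an alternative. Named genes were the called genes with the largest changes, the listed genes and, between cell sets, the 20 highest and 10 lowest ratios among genes with the same direction in all 8 libraries (pseudocount 10 CPM). Total UMIs per Panc02-SIY library were 5327146 to 43776342, and 1 UMI of the gated cells was worth 10.4 CPM in RT 1. Scripts were tested on simulated data. Counts come from 3' tags, so levels of different genes are shares of UMIs and not corrected for capture. Gene positions are from GENCODE M21 on GRCm38.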

Additional observations from a re-analysis of the deposited data

Results flagged for a closer look

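Single libraries stood far from the other 3 of their group in 9 of the 64 groups of 4 libraries examined, where chance gives about 1 in 20 (3.2). For the number of gated cells, replicate 4 stood apart in both groups, with 415 in NT and 308 in RT, and its share of kept barcodes in RT was 11.4%. The median depth in RT 1, 3430 UMIs, was far below that of RT 2 to 4.

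Among genes named for the radiation response, the irradiated gated cells held a library apart for Trp53inp1 (0 CPM in RT 1), Bax (271 CPM in RT 3), Nfkbiz (831 CPM in RT 3), Hnrnpab (115 CPM in RT 1) and Nrm (15.5 CPM in RT 4). RT 1 rests on 11 cells, and 8 of the 56 called genes had no UMI there.

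The response to radiation differed between gated cells and C1q macrophages, by the edgeR test of the difference itself, for 4 genes. The difference in log2 fold change was 1.59 for Xcr1, -2.23 for Hist1h2ae, -1.64 for Ifit2 and 1.79 for Bhlhe41.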

How the results depend on the processing

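Directions held better than calls, as was likely in advance for genes picked by their fold change from largely the same counts. Over the 56 genes called in gated cells, 1273 values under other settings all kept their sign, 905 with the same side of the threshold and 368 no longer past it. The 56 became 91 with no filter on low counts, 19 at an adjusted p below 0.05, 20 with library sums thinned to the smallest (1785 genes tested, 11 of the 56 called) and 115 (60 higher and 55 lower) with 2 or more Fcrl5 UMIs per cell. In settings chosen after seeing the data, the number was 85 with gated cells of 5000 or more UMIs and 10 (9 higher and 1 lower) with the untreated library of 6 cells added. DESeq2 called 55, of which 33 were among the 56. Leaving out each library in turn gave 10 to 104 genes in gated cells, 3 to 37 in C1q macrophages and 4 to 21 for the difference in response. That difference was called for 13 genes with Ly6c2 monocytes as the comparison and for 1 with C1q macrophages lacking Fcgr4 and Cd300e, none among the 4. The cause of these shifts was not tested.

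The share of barcodes differed by 0.0250 points, in the opposite direction, with 2 or more Fcrl5 UMIs. Over single libraries left out it ranged from -3.00 to 1.73, with 0.338, 0.0385 and 0.175 without RT 1, RT 2 and RT 3. The share of macrophages ranged from -4.93 to 8.26 and was -2.77 without NT 1.

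Same-numbered NT and RT libraries share a replicate number, but their deviations correlated at 0.0172, 0.126 and 0.393 in gated cells (numbers 2 to 4) and at 0.173, -0.0423, 0.322 and 0.561 in C1q macrophages (numbers 1 to 4). As not every pair was over 0.1, the numbers were not taken as pairing. The number of gated cells and their share of barcodes did rank the replicate numbers alike in both groups. Whether same-numbered libraries are pairs could not be settled. With a replicate block 657 genes were called in gated cells, among them all 56, and 579 in C1q macrophages, among them all 22. In the gated fit RT 1 had no untreated library of its number, so it added nothing to the contrast of RT with NT. For the shares the block left the differences at -0.613 and 2.79 points (exact paired permutation p = 0.375 each, smallest possible 0.125). In gated cells RT 4 correlated best with its own number, RT 2 with NT 3 and RT 3 with NT 2, and in C1q macrophages RT 1, RT 3 and RT 4 did so with their own number and RT 2 with NT 4.

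Depth limits replicate 1 in both groups most, and low genes such as Trp53inp1 and Prf1 rest on few UMIs there.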
